A study of Homo sapiens with 12 samples.

Results

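KRT8, KRT18, KRT19, KRT20, KRT23 and KRT80 are 6 keratin genes, chosen by symbol as the simple epithelial keratins plus KRT80. They are 6 of the 56634 gene symbols in the table of read counts. The libraries came from HCT116, an established human colorectal carcinoma cell line grown in 12-well plates, and 4 groups of 3 biological replicates were sequenced. Control cells had DMSO at 0.1% as vehicle for 3 hours. Senexin B cells had 1 µM of that compound, an inhibitor of the Mediator kinases CDK8 and CDK19, for 3 hours. The TNF group was held for 1 hour in 0.1% DMSO before 2 hours with the cytokine TNF-alpha (TNF) at 10 ng/mL. The TNF plus Senexin B group had the inhibitor at 1 µM for the first hour, then TNF at the same dose and time. The vehicle of the Senexin B groups is not given in the sources used here. All groups share 1 cell line grown alone, and no tissue was sampled.

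Keratins form the intermediate filaments of epithelial cells. A filament is built from heterodimers, each of a type II (basic) and a type I (acidic) chain, and a chain without a partner is degraded, so both types are made in balance. In simple epithelia such as the gut lining, KRT8 is the main type II chain and KRT18 its usual type I partner, with KRT19 as a further type I chain and KRT20 marking differentiated enterocytes and goblet cells. KRT23 is a type I keratin found in some colon tumours, and KRT80 a type II keratin found near desmosomes and at cell edges. The type II genes and KRT18 lie together on chromosome 12, and the other type I genes on chromosome 17.

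In GENCODE 29 (GRCh38, the build of the counts), the type II genes were KRT8 at chr12:52897187-52949954 and KRT80 at chr12:52168996-52192000, both on the minus strand. The type I gene KRT18 was at chr12:52948871-52952901 on the plus strand, where it overlapped the far end of the KRT8 annotation by 1084 bases. KRT19 was at chr17:41523617-41528308, KRT20 at chr17:40875941-40885227 and KRT23 at chr17:40922696-40937634, all on the minus strand. The library kit does not mark the strand, so reads in the KRT8 and KRT18 overlap cannot be assigned to one of them. The same holds for KRT23 with an antisense transcript. The KRT80 annotation overlapped that of the lincRNA LINC00592 on the plus strand. In the search for shared words below, however, the KRT80 transcript shared words only with KRT8 and KRT8P3, and not with LINC00592.

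KRT8 and KRT18 have many processed pseudogenes, and their transcripts are the hardest of the 6 to count. Of the 50-base words in the KRT8 transcript, 36.9% also occurred in another annotated gene on either strand, and 47.6% of those in KRT18. These shares include genes that overlap at the same locus, and not only pseudogenes. KRT18 shared most words with KRT8 retained-intron transcripts (16.9%), ahead of KRT18P11 (9.98%), and KRT8 shared most with KRT8P3 (19.0%). The share was 4.95% for KRT23, all of it with the overlapping antisense transcript. It was 1.79% for KRT19, 0.420% for KRT80 and 0 for KRT20. A 150-base coding stretch of KRT18 is shown beside a pseudogene copy, since it is these near-identical letters that a short read must tell apart. The KRT18 stretch is coding bases 1088 to 1237 of 1290 (GRCh38, chr12:52952258-52952786, plus strand, introns left out), and KRT18P11 lies at chrX:92459670-92460952 on the plus strand. Capitals mark the bases that differ.
KRT18: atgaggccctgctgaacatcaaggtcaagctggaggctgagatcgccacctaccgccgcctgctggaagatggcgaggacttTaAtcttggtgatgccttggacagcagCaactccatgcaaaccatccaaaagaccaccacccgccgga
KRT18P11: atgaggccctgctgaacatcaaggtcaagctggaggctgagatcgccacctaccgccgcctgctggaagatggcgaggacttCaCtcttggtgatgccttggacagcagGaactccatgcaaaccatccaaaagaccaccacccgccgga
The pair had 147 identical bases and 3 different. The table kept separate symbols for 50 KRT8 pseudogenes, whose summed counts were 0.901% to 0.954% of the KRT8 counts over the 4 groups. The 67 KRT18 pseudogenes summed to 0.229% to 0.279% of KRT18. How reads that map to several places were treated is not given in the sources used here, so the KRT8 and KRT18 levels below are uncertain by what was lost or gained that way.

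Library totals ran from 5835226 to 9281176 counts. The fibroblast and blood cell markers were low. The 8 fibroblast genes summed to 8.67 to 12.7 CPM (counts scaled to the effective size of each library). Most of that was COL1A1, at a mean of 9.64 CPM, followed by ACTA2 at 1.36 CPM. DCN, LUM and THY1 were at 0. The 8 blood cell genes summed to at most 0.539 CPM. In TNF replicate 1, the smallest library, genes of higher GC content lay below their group's mean (Spearman's rho across genes -0.67), against 0.47 and 0.45 in TNF replicates 2 and 3. In control replicates 1 to 3 this value was -0.22, -0.09 and 0.33. KRT8, KRT18, KRT19 and KRT80 were each lowest of the TNF group in TNF replicate 1, and KRT8, KRT18, KRT19 and KRT80 were also lowest of the control group in control replicate 1, so results that rest on these libraries are given without them too.

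Of the 6 genes, 3 were abundant and 3 were not. To compare genes, CPM was divided by the length of the principal transcript in kilobases. In control cells, KRT8 stood at 1067 ± 36.9 CPM per kb (SD, n = 3), rank 33 of 11542 tested genes with an annotated principal transcript. KRT18 followed at 623 ± 49.0 (rank 80) and KRT19 at 478 ± 13.5 (rank 96), each below its neighbour by more than the SDs. KRT80, at 7.50 ± 0.583 CPM per kb, and KRT23, at 7.19 ± 0.758, did not differ beyond their spread. KRT20 was lowest at 0.513 ± 0.105 CPM per kb. Summed over members, type II transcripts were 0.970 ± 0.0234 of type I transcripts per length in control cells, 1.03 ± 0.0115 with Senexin B, 0.949 ± 0.0229 with TNF and 1.01 ± 0.0166 with both. KRT8 made up 99.0% to 99.3% of the type II sum, and the type I sum was split between KRT18 (54.6% to 60.6%) and KRT19 (38.6% to 44.6%). The near-even balance depends on the length used. With the length of all annotated exons joined, in which KRT8 is longest, KRT8 stood at 330 CPM per exon kb, KRT18 at 302 and KRT19 at 285, and the ratio in control cells was 0.568.

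**Figure D1:**
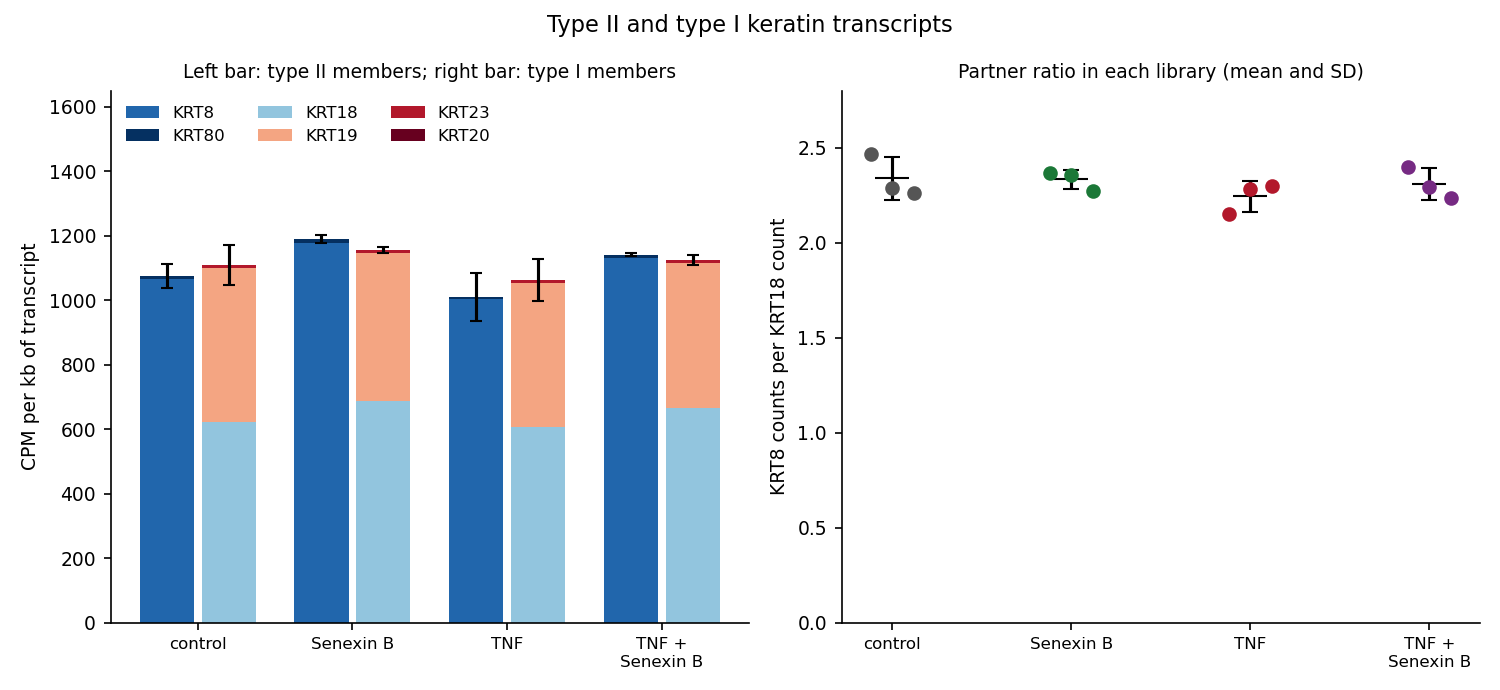
Left, mean CPM per kb of principal transcript in each group, stacked for the type II genes (left bar) and type I genes (right bar), with error bars for the SD of the sum over 3 libraries. Right, KRT8 counts per KRT18 count in each library with group mean and SD: the 4 group means lie between 2.24 and 2.34, and the libraries of all groups overlap.

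Senexin B raised 3 of the keratins slightly to moderately, with and without TNF. Without TNF, KRT80, KRT8 and KRT18 were called higher (edgeR quasi-likelihood test, Benjamini-Hochberg adjusted p under 0.05 over 13084 tested genes) and 2 members, KRT19 and KRT23, did not pass. That is 3 of 5 tested members, beside 1.53% of all tested genes called higher and 3.04% called in either direction. With TNF present the same 3 genes were called higher and the same 2 did not pass, beside 2.90% of all tested genes called higher and 5.45% in either direction. In both comparisons these 3 were also the members whose libraries did not overlap, as held for 20.0% and 22.6% of all tested genes in either direction. The median log2 fold change of the 5 was 0.14 in each comparison, with -0.00036 and 0.00077 over all tested genes. KRT20 did not pass the filter on low counts and was not tested. In cultures measured in bulk, more cells with a transcript and more of it per cell cannot be told apart.

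KRT80, the type II keratin of desmosomal and cell-edge filaments, had the largest fitted Senexin B change of the 5 tested. Its level was 27.2, 28.1 and 31.5 CPM in control replicates 1 to 3 and 43.2, 46.4 and 42.2 CPM with Senexin B. It was 24.3, 30.3 and 27.5 CPM with TNF and 38.7, 36.0 and 42.2 CPM with both agents. All 6 libraries with the inhibitor lay above all 6 without it, behind 140 to 394 counts per library. The share of all tested genes that split in this way was not counted. The log2 fold change was 0.59 ± 0.08 (SE) without TNF, a 1.51-fold level with a 95% interval of 1.35 to 1.69 (edgeR adjusted p = 5.1e-07). With TNF it was 0.50 ± 0.09, or 1.41-fold with an interval of 1.25 to 1.59 (edgeR adjusted p = 5.41e-05). The difference between these effects was -0.10 ± 0.12 (interaction, edgeR adjusted p = 0.921), with an interval from -0.34 to 0.14. Cells with both agents had more KRT80 than control cells as well, by 0.42 ± 0.08 (edgeR adjusted p = 0.000133). There it was 1 of 5 tested members called, beside 11.2% of all tested genes in either direction and 6.09% higher. The other 4 did not pass, at 0.08 ± 0.03 for KRT8, 0.10 ± 0.04 for KRT18, -0.09 ± 0.04 for KRT19 and 0.22 ± 0.11 for KRT23. Without TNF replicate 1, KRT8 (0.08, edgeR adjusted p = 0.0217) and KRT19 (-0.09, edgeR adjusted p = 0.0336) were called too, and without control replicate 3 KRT18 was (0.15, edgeR adjusted p = 0.00948).

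KRT8, the main type II chain of simple epithelia, rose by a much smaller factor from a far higher level. Control replicates 1 to 3 had 2192, 2262 and 2349 CPM, and Senexin B replicates 2533, 2501 and 2479. With TNF the values were 1952, 2230 and 2210 CPM, and with both agents 2411, 2393 and 2409. Again every library with the inhibitor lay above every one without it, and the SD over the 3 libraries with both agents was only 9.58 CPM against 155 CPM with TNF. The log2 fold change was 0.14 ± 0.03 without TNF (1.10-fold, interval 1.05 to 1.16, edgeR adjusted p = 0.0102) and 0.17 ± 0.03 with it (1.13-fold, interval 1.07 to 1.18, edgeR adjusted p = 0.000866). Without control replicate 1 the first value was 0.12 and lost its call (edgeR adjusted p = 0.0909), and without Senexin B replicate 1 it was 0.13 (edgeR adjusted p = 0.0775). Without TNF replicate 1 the second was 0.11 and kept it (edgeR adjusted p = 0.0127).

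KRT18, the type I partner of KRT8, moved by the same factor with a less stable call. Its levels were 889, 989 and 1040 CPM in control replicates 1 to 3 and 1070, 1061 and 1091 CPM with Senexin B. They were 907, 977 and 962 CPM with TNF and 1005, 1044 and 1078 CPM with both agents. Within each TNF condition the groups did not overlap, although control replicate 3 lay above the lowest library with both agents. The log2 fold change was 0.14 ± 0.04 without TNF (edgeR adjusted p = 0.0355) and 0.14 ± 0.04 with it (edgeR adjusted p = 0.0364). Without control replicate 1 the first fell to 0.08 (edgeR adjusted p = 0.360), and without TNF replicate 1 the second fell to 0.10 (edgeR adjusted p = 0.259). DESeq2 gave adjusted p = 0.0593 and 0.0517. Averaged over both TNF conditions, the Senexin B effect on KRT18 was 0.14 ± 0.03 (edgeR adjusted p = 0.000668). This mean effect was called in each of the 20 alternative settings run, at 0.09 to 0.16. The mean effects on KRT8 (0.16 ± 0.02, edgeR adjusted p = 6.36e-06) and KRT80 (0.55 ± 0.06, edgeR adjusted p = 3.12e-10) were also called in all 20. In that averaged comparison 3 of 5 tested members were called higher, beside 5.18% of all tested genes higher and 10.1% in either direction.

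**Figure D2:**
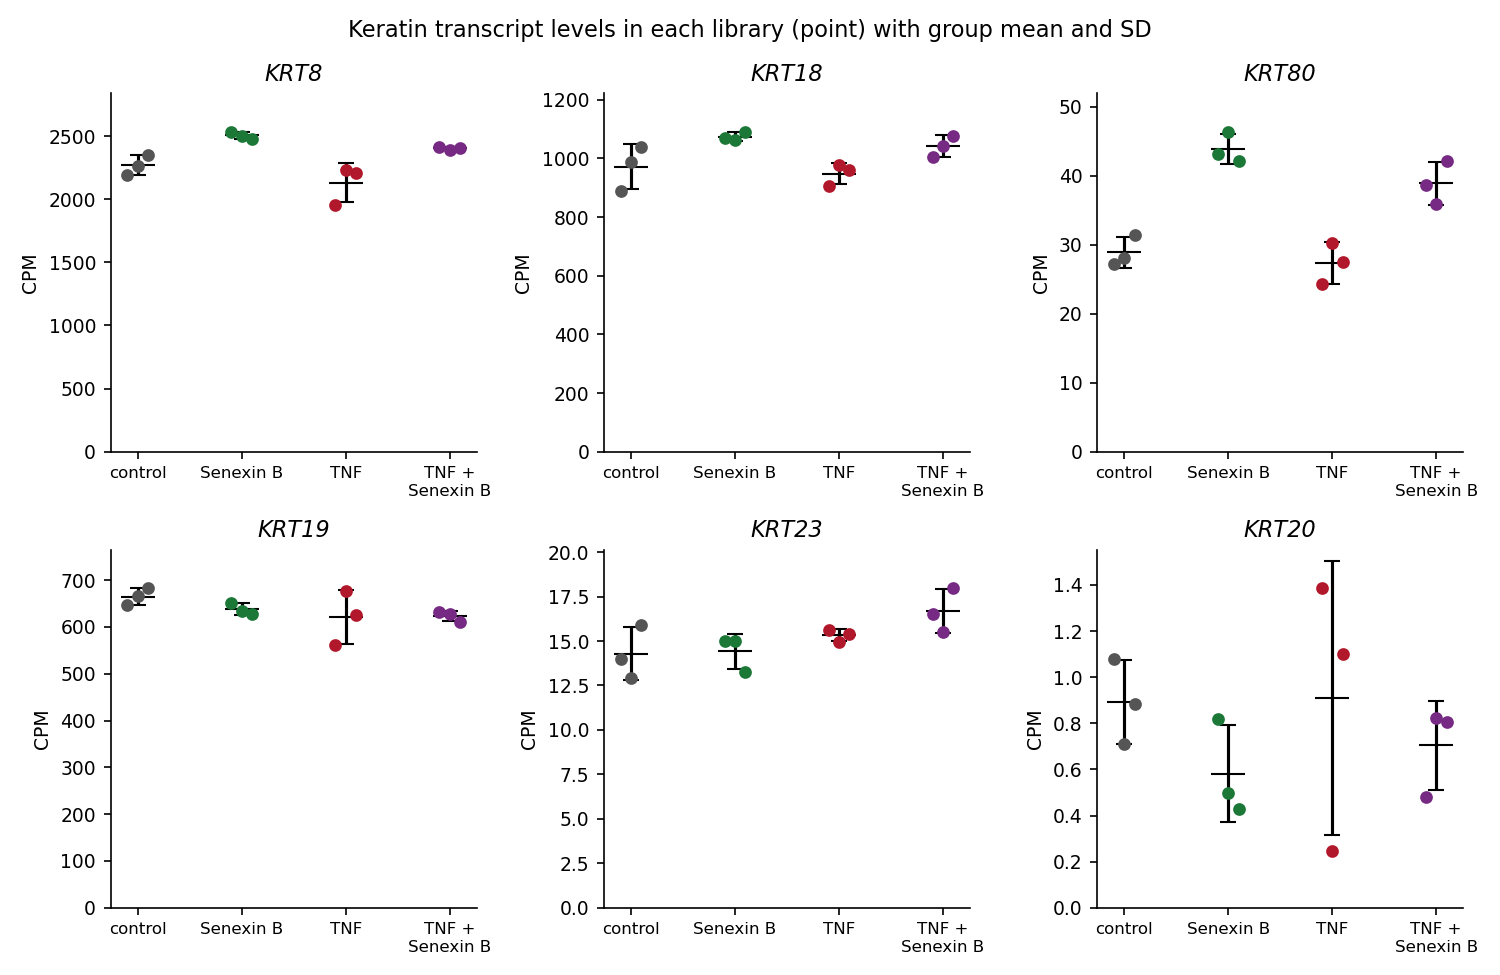
CPM of each of the 6 genes (own linear axis from 0) in each library, by group, with the group mean and SD over 3 libraries. For KRT80 and KRT8 all 6 libraries with Senexin B lie above all 6 without it, while KRT19, KRT23 and KRT20 show no such split. Its share over all tested genes was not counted.

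KRT19, the type I chain that takes the place of KRT18 in part of the filaments, did not pass the test in any comparison as fitted. Its levels were 646, 665 and 684 CPM in control replicates 1 to 3, 652, 635 and 628 CPM with Senexin B, 562, 678 and 625 CPM with TNF and 631, 628 and 610 CPM with both agents. All groups overlapped except control and both agents, where the 3 libraries with both lay lower, a separation seen in 26.6% of tested genes in either direction. The Senexin B effect was -0.06 ± 0.04 without TNF (edgeR adjusted p = 0.561) and 0.00 ± 0.04 with TNF (edgeR adjusted p = 0.996). Its mean was -0.03 with an interval of -0.09 to 0.03, so a rise as large as that of KRT8 lay outside the interval. When library GC effects were corrected the mean became -0.08 (edgeR adjusted p = 0.0048), and without control replicate 1 and TNF replicate 1 it was -0.07 (edgeR adjusted p = 0.0299), so the KRT19 call depended on these choices, with the sign below 0 in each of these 3 values. KRT19 had the highest transcript GC content of the 6, 61.8%, where KRT8, KRT18 and KRT80 were at 55.7% to 56.8%.

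KRT23, the low type I keratin, stood at 14.0, 12.9 and 15.9 CPM in control replicates 1 to 3, 15.0, 15.0 and 13.3 CPM with Senexin B, 15.6, 15.0 and 15.4 CPM with TNF and 16.5, 15.5 and 18.0 CPM with both. Control and Senexin B libraries overlapped throughout. The Senexin B effect was 0.01 ± 0.11 without TNF (edgeR adjusted p = 0.99) and 0.13 ± 0.11 with it (edgeR adjusted p = 0.594). At 90 to 156 counts per library, the intervals ran from -0.22 to 0.23 and from -0.10 to 0.35, wide enough to hold a rise the size of that of KRT8 but not one the size of that of KRT80.

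KRT20, the keratin of differentiated gut epithelium, had 2 to 9 counts per library and 74 in all, or 0.245 to 1.39 CPM. Its group means were 0.891 ± 0.183 CPM in control, 0.581 ± 0.209 with Senexin B, 0.911 ± 0.594 with TNF and 0.704 ± 0.192 with both (SD, n = 3), and all groups overlapped. A difference between groups was not detectable at this depth. Other genes of enterocyte differentiation were mostly as low. Of 18 listed, 2 were tested, CA2 (carbonic anhydrase, mean 52.3 CPM) and DPP4 (a brush border peptidase, 4.97 CPM), and neither was called in any comparison. VIL1 was at 0 counts in all 12 libraries. So were SI, FABP1 and ALPI, which mark absorptive cells, and MUC2 and TFF3, which mark goblet cells. Markers of epithelial cells in general were well expressed, with EPCAM at a mean of 361 CPM and CDH1 at 63.5 CPM.

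No keratin passed the test with TNF alone. None of the 5 tested members was called in TNF against control, where 10.0% of all tested genes were called, and 2 (KRT8 and KRT19) had an unadjusted p under 0.05. The groups overlapped for all 5, where 24.3% of tested genes had no overlap. DESeq2 called none either. Without control replicate 1, KRT8 was called at -0.11 (edgeR adjusted p = 0.0468), and without TNF replicate 2 both KRT8 (-0.12, edgeR adjusted p = 0.0194) and KRT19 (-0.16, edgeR adjusted p = 0.00478) were. Without TNF replicate 1, KRT8 was at -0.03 (edgeR adjusted p = 0.665), and with GC-corrected offsets KRT19 was at 0.01 (edgeR adjusted p = 0.946). The fitted values were -0.09 ± 0.04 for KRT8 (edgeR adjusted p = 0.100), -0.07 ± 0.09 for KRT80, -0.04 ± 0.04 for KRT18, -0.09 ± 0.04 for KRT19 and 0.09 ± 0.12 for KRT23. Under the inhibitor none was called either, where 5.95% of all tested genes were, with 1 (KRT80, -0.17 ± 0.08) at an unadjusted p under 0.05 and none called by DESeq2. The KRT8 libraries with both agents all lay below those with Senexin B alone, and the KRT23 libraries with both all lay above, so that 2 of 5 members did not overlap, beside 21.9% of tested genes in either direction. The fitted KRT23 value there was 0.21 ± 0.11 (edgeR adjusted p = 0.351). Averaged over both conditions, the TNF effect on KRT8 was -0.07 ± 0.02 (edgeR adjusted p = 0.0352), so that KRT8 fell by 5.01%. It was 1 of 5 tested members called, beside 6.40% of tested genes lower and 14.2% in either direction. This call was lost in 10 of 20 alternatives. They were DESeq2 (adjusted p = 0.0726) and leaving out TNF replicate 1 (-0.04, edgeR adjusted p = 0.143), control replicate 2 or 3, or any single library with Senexin B (-0.06 to -0.08, edgeR adjusted p of 0.0516 to 0.125).

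**Figure D3:**
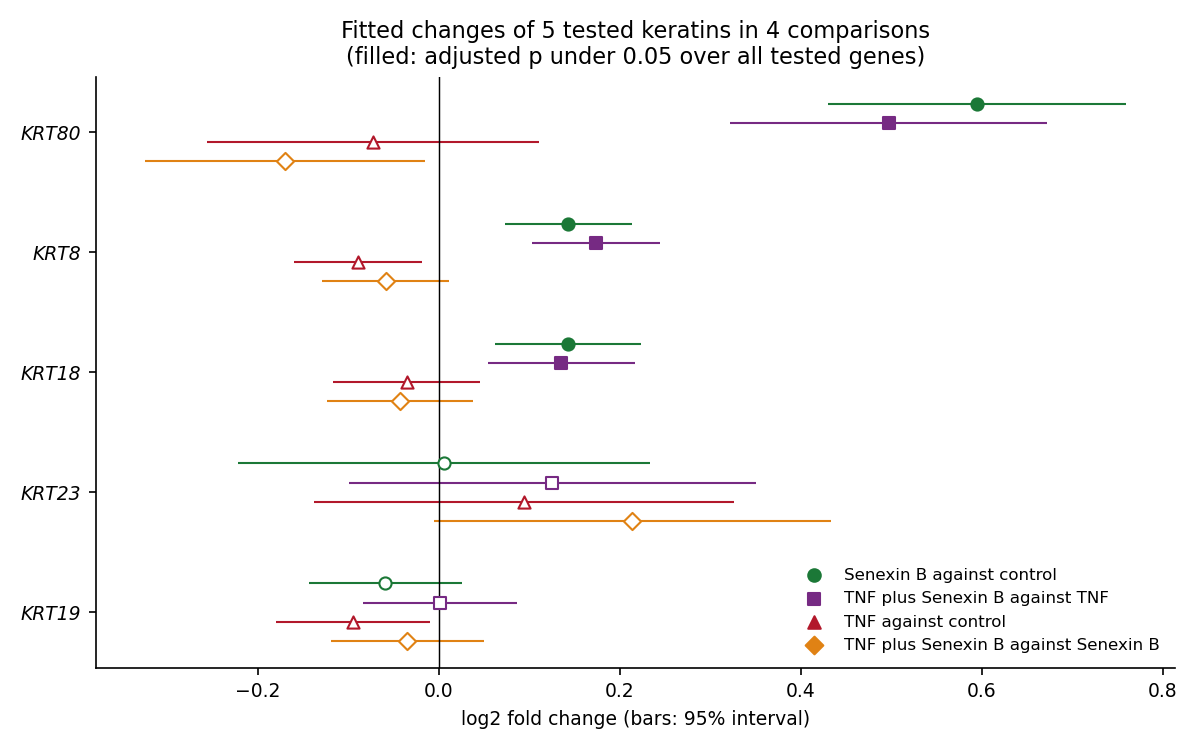
Fitted log2 fold change of the 5 tested keratins in 4 comparisons, with 95% intervals, filled where the adjusted p over all tested genes was under 0.05. KRT80 lies at 0.59 and 0.50 and KRT8 and KRT18 near 0.14 with Senexin B, while no member is filled in the 2 comparisons of TNF.

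No member's response to the inhibitor was shown to depend on TNF. Over all tested genes 0.0459% were called in the interaction, and 0 of 5 members were, with 0 at an unadjusted p under 0.05 and 0 in DESeq2. The smallest adjusted p among them was 0.895 (KRT19). The intervals of the interaction ran from -0.07 to 0.13 for KRT8 and from -0.12 to 0.11 for KRT18, so a dependence of the size of their Senexin B effects lay beyond their edges.

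Ratios between the members within a library do not depend on how libraries are scaled. For the partners KRT8 and KRT18 there were 2.34 ± 0.112 KRT8 counts per KRT18 count in control cells, 2.33 ± 0.0513 with Senexin B, 2.24 ± 0.0809 with TNF and 2.31 ± 0.0827 with both (SD, n = 3). All groups overlapped. The log2 ratio differed by 0.02 with Senexin B (two-sided exact permutation test within TNF strata, 400 arrangements, p = 0.53) and by -0.04 with TNF (exact p = 0.28).

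Other pairs did shift. The 10 ratios among the 5 tested members were compared for each agent, a set of tests added after the data were seen, with p-values adjusted over the 10. With Senexin B, KRT80 rose relative to KRT8 by 0.40 on the log2 scale, to KRT18 by 0.42, to KRT19 by 0.58 and to KRT23 by 0.49 (exact permutation p = 0.005 each, the smallest that 400 arrangements can give, adjusted 0.01). KRT8 rose relative to KRT19 by 0.19 (exact permutation p = 0.005, adjusted 0.01) and KRT18 relative to KRT19 by 0.17 (exact permutation p = 0.01, adjusted 0.0167). Within the type I chains, KRT18 thus made up 56.1% ± 1.29 of the sum per length in control cells and 59.6% ± 0.703 with Senexin B, and KRT19 43.2% ± 1.27 and 39.8% ± 0.654. Without control replicate 1 and TNF replicate 1, both KRT19 ratios had an exact permutation p of 0.01, unadjusted, at 0.19 and 0.17. Fewer libraries allow fewer arrangements, so this p cannot be set beside those with all libraries. With TNF, KRT23 was higher relative to each of the other 4, by 0.20 to 0.29 on the log2 scale (exact permutation adjusted p = 0.0375 each). Without both of those libraries the unadjusted exact permutation p for KRT19 and KRT23 was 0.0667, and 0.0167 to 0.0333 for the other 3 pairs. These values were not adjusted over the 10 pairs, so they cannot be set beside 0.0375. All 4 pairs share KRT23, whose transcript GC content, 50.3%, was the lowest of the 5 tested. The ratios were not corrected for GC content. The fit of KRT23 itself gave a mean TNF effect of 0.15 ± 0.08 that did not pass (edgeR adjusted p = 0.214).

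Most of the rest of the keratin family was nearly silent. Of 49 other keratin genes, 17 were at 0 counts in all libraries and 6 passed the filter: KRT7, KRT10, KRT15, KRT32, KRT81 and KRT222. KRT7 and KRT10 had means of 33.4 and 33.0 CPM, near KRT80 at 34.8 CPM. Per length in control cells they stood at 15.7 and 15.1 CPM per kb, above KRT80 at 7.50. Among the keratins of basal and stratified epithelium, KRT5 (mean 0.192 CPM), KRT14 (0.0539 CPM) and KRT1 (0) were at or near 0. KRT10 and KRT15 were not, at means of 33.0 and 14.1 CPM. The nearest annotated protein-coding gene beside KRT80, 40519 bases away, is KRT7, a type II keratin of simple ductal epithelia. KRT7 was the single other keratin called with Senexin B. It stood at 27.8, 28.1 and 26.6 CPM in control replicates 1 to 3, 34.4, 38.2 and 31.7 CPM with Senexin B, 23.6, 32.7 and 35.4 CPM with TNF and 41.7, 41.5 and 39.3 CPM with both. The libraries with the inhibitor lay above their counterparts in each TNF condition, while TNF replicate 1 was far below the other TNF libraries. KRT7 rose by 0.33 ± 0.09 without TNF (edgeR adjusted p = 0.0301) and by 0.39 ± 0.09 with it (edgeR adjusted p = 0.00429). Without control replicate 1 the first was 0.34 (edgeR adjusted p = 0.0735), and without TNF replicate 1 the second was 0.26 (edgeR adjusted p = 0.0712). The mean effect, 0.36 ± 0.07 (edgeR adjusted p = 6.45e-05), was called in all 20 alternatives. KRT7 also rose on average with TNF, by 0.21 ± 0.07 (edgeR adjusted p = 0.0214), a call lost in 6 of 20 alternatives, DESeq2 (adjusted p = 0.117) and leaving out TNF replicate 3 (0.15, edgeR adjusted p = 0.142) among them.

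Keratins were also grouped by chromosome, a grouping chosen after the values were seen. On chromosome 12, 4 of the 5 tested keratins were called higher with Senexin B in each TNF condition. On chromosome 17, 0 of the 6 were. Over all tested genes 1.53% were called higher without TNF and 2.90% with it. The chromosome 12 keratin that was not called, KRT81, had a mean effect of 0.53 ± 0.26 at 1.38 CPM (edgeR adjusted p = 0.187). On chromosome 17 the mean effects of KRT10 (0.06 ± 0.06) and KRT15 (0.10 ± 0.09), at 33.0 and 14.1 CPM, did not pass. KRT32 (-0.08 ± 0.26) and KRT222 (-0.47 ± 0.38), at 1.35 and 0.950 CPM, had SEs larger than the KRT8 and KRT18 effects. KRT18, the type I gene among the 4 called, also lies on chromosome 12, where its annotation overlaps that of KRT8. Neither a difference between the chromosomes nor one between the keratin types was tested.

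**Figure D4:**
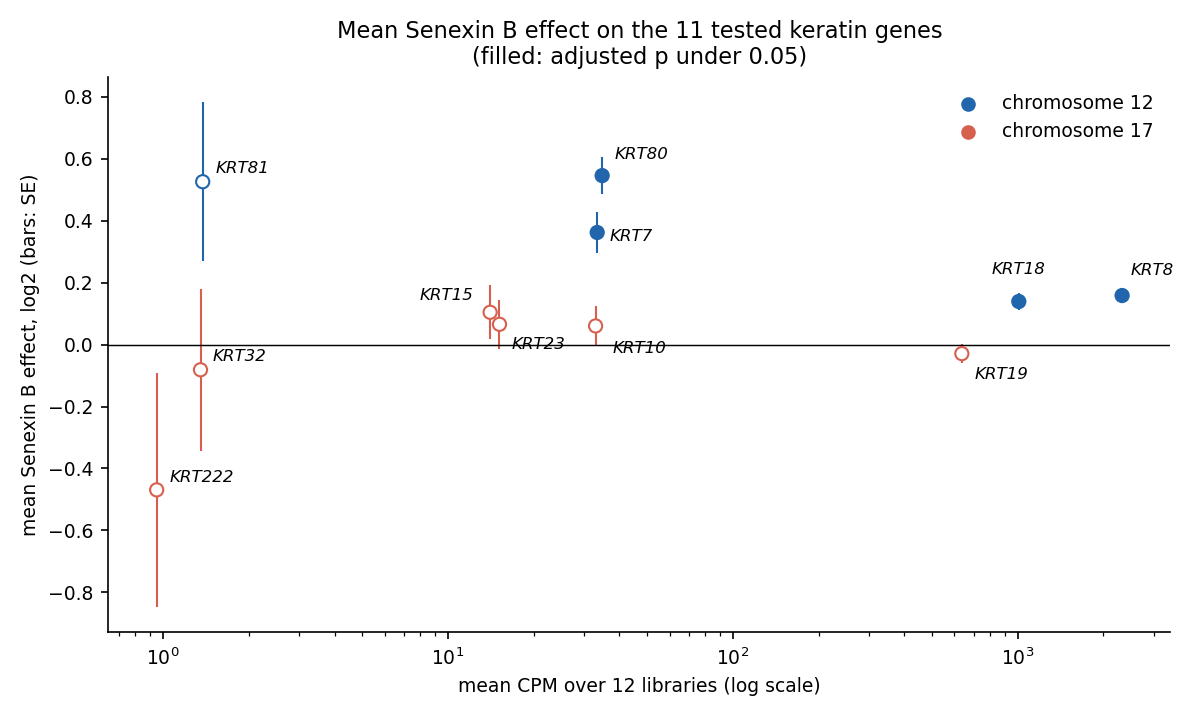
Mean Senexin B effect (log2, bars give the SE) of the 11 tested keratin genes against their mean CPM over 12 libraries (log axis), coloured by chromosome and filled where called. The 4 filled points, KRT80, KRT7, KRT8 and KRT18, are all on chromosome 12.

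Genes that anchor keratin filaments were examined next. Of 22 listed genes of desmosomes, hemidesmosomes and keratin anchoring, 17 were tested. With Senexin B alone 1 was called higher, ITGB4 (the integrin that ties keratins to the basal membrane, 0.20 ± 0.05, edgeR adjusted p = 0.006), and with TNF present 2 were, ITGB4 (0.22 ± 0.05) and EVPL (envoplakin, a desmosomal plakin, 0.28 ± 0.07). None was called lower, so that 1 and 2 of 17 were called, beside 3.04% and 5.45% of all tested genes in either direction. The list's median was -0.02 and 0.08 in these comparisons. With TNF against control 5 were lower and 1 higher, beside 10.0% of all tested genes called in either direction. EVPL fell by 0.46, ITGB4 by 0.27 and FAM83H, a regulator of keratin filament organisation, by 0.22. EVPL and ITGB4 were both lowest of the TNF group in TNF replicate 1, at 33.1 and 164 CPM. Values without that library are not given for them. The other calls, named after their values were seen, were PPL and PKP3 (lower) and DSC2 (higher). DSP, JUP and PLEC, the main linkers of keratin to junctions, were not called in any of these 3 comparisons, at means of 278, 212 and 709 CPM.

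KRT8, KRT80 and KRT18 also resembled each other most across libraries. Over the 12 libraries, which share the same treatments, depths and counting, Pearson's r of log2(CPM + 1) was 0.92 for KRT8 and KRT80, 0.88 for KRT8 and KRT18 and 0.87 for KRT80 and KRT18. KRT19 had 0.42 with KRT8 and 0.10 with KRT80, and KRT23 ranged from -0.31 to 0.22 with the others. Among 9248 genes of at least 10 CPM, the most similar to KRT80 were CMTM7 (r = 0.957), HS3ST1 (0.943) and HTR7 (0.943), and to KRT8 SDF4 (0.972), RBM14 (0.971) and AP3D1 (0.962). For KRT18 they were RSAD1 (0.956), LLGL1 (0.946) and PSKH1 (0.942), for KRT19 EEF1A2 (0.968), FBRS (0.950) and IP6K1 (0.941), and for KRT23 MYL6 (0.886), GPATCH4 (0.854) and MLLT10 (0.853).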

How the data were processed

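RNA of HCT116 cells was sequenced from TruSeq RNA libraries, 3 biological replicates in each of 4 groups, per the labels' protocols. Read counts per gene symbol were deposited as whole numbers without normalization, and the columns were matched to samples by the sample number in each description. Per the submitters' processing notes, the tools included STAR 2.4, SAMtools 1.2 and featureCounts, with the build GRCh38. The annotation release, the strand setting and the handling of multi-mapping reads are not given in the sources used here.

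Counts were tested in edgeR 4.0.16 (R 4.3.3, limma 3.58.1) with TMM factors, the low-count filter by group and robust quasi-likelihood F-tests, in 1 fit of all 12 libraries with 1 coefficient per group. Mean effects average the 2 contrasts of one agent. A gene was called where its p, adjusted by Benjamini-Hochberg over 13084 tested genes, was under 0.05. The ± values of log2 fold changes are Wald standard errors scaled by the quasi-dispersion, and intervals are at 95%. Library totals of 5835226 to 9281176 counts set the precision, and p-values measure the spread between these libraries, at a common biological coefficient of variation of 3.62%. CPM use TMM-scaled library sizes. Lengths, positions, GC content and shared 50-base words came from GENCODE 29, and 12223 of the tested genes (93.4%), with all 5 tested keratins, had a GC value.

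The 6 genes and the lists (other keratins, desmosome and keratin anchoring, other intermediate filaments, epithelial transcription factors, enterocyte differentiation, epithelial identity, fibroblast and blood cell markers) were chosen with earlier results of these data known. Named genes are the 6, from each list the 3 called genes of lowest adjusted p in a comparison, the 3 genes above 10 mean CPM that correlated best with each keratin, and the neighbouring genes. Alternatives were other scaling factors, DESeq2 1.42.0, no filter, only the groups compared, a replicate block, GC-corrected offsets and leaving out libraries. The test across genes was also run on counts simulated at the common dispersion and without library GC effects. That run does not bear on calls that depend on such effects.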

Additional observations from a re-analysis of the deposited data

Results flagged for a closer look

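One gene of the epithelial lists responded to Senexin B differently with and without TNF, which brought it here. CLDN4, a claudin of epithelial tight junctions, stood at 117, 118 and 116 CPM in control replicates 1 to 3 and at 113, 99.2 and 106 CPM with Senexin B. With TNF it was at 117, 118 and 113 CPM and with both agents at 148, 148 and 151 CPM. All 3 libraries with both agents lay above the other 9. The Senexin B effect with TNF exceeded that without it by 0.503 ± 0.07 on the log2 scale (SE, interaction in edgeR, adjusted p = 4.41e-05), 1 of 6 genes called of 13084. The keratins showed no such difference, with adjusted p of at least 0.895 for each of the 5 tested.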

How the results depend on the processing

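KRT80 was called higher with Senexin B in all 21 alternatives, at 0.55 to 0.66 without TNF and 0.43 to 0.58 with it, and KRT8 in 19 and 21 of them. KRT18 was called in 12 and 13 of 21. One call had the opposite sign to the fitted value: KRT19 with both agents against TNF, 0.00 as fitted, was -0.0913 (edgeR adjusted p = 0.031) with the replicate block and GC-corrected offsets. Values near 0 also changed sign in some alternatives without being called there, such as KRT19 and KRT18 with TNF against control (up to 0.01 and 0.02), KRT23 with Senexin B (down to -0.06) and the interactions of KRT8, KRT18 and KRT19. Members called with both agents against control, 1 as fitted, were 2 with the replicate block, 2 with GC-corrected offsets and 4 with both corrections. They were 2 without control replicate 1 and TNF replicate 1, and 3 with only the groups compared. All genes called there, 1462 as fitted, were in the same order 1580, 1803 and 1946 of 13084, 1586 of 13228 and 1561 of 12758. With TNF against control, 0 as fitted, 1 was called (KRT8) with upper-quartile factors and 1 with the replicate block. All genes called there, 1309 as fitted, were 1303 and 1470 of 13084. In DESeq2 the mean TNF effect had 0 members called in place of 1. DESeq2 called fewer genes: 801 in place of 1309 for TNF, 259 in place of 398 for Senexin B, 438 in place of 713 and 485 in place of 779 for both agents against TNF and against Senexin B, 943 in place of 1462 for both against control, and 1188 in place of 1864 and 804 in place of 1318 for the mean TNF and Senexin B effects. The cause was not tested. The interaction had 10 genes without the filter in place of 6, and Senexin B 723 with the replicate block and GC-corrected offsets.

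Leaving out 1 library at a time, Senexin B against control had 236 to 589 genes and 1 to 3 members called. Both agents against TNF had 451 to 815 genes and the interaction 2 to 9 genes. TNF against control had 876 to 1348 genes and 0 to 2 members. Both agents against control had 1069 to 1759 genes and 1 to 3 members, and the mean TNF effect 1513 to 1965 genes and 0 to 2 members. Members called for Senexin B fell to 1, KRT80, without control replicate 1 or Senexin B replicate 1. With upper-quartile factors 43.6% of genes called with TNF were higher, in place of 58.1%, and 40.8% in place of 55.1% for the mean TNF effect. The KRT8 to KRT18 ratio kept p over 0.05 in each alternative, at 0.656 and 0.375 with the replicate block.

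Replicate numbers were not taken to pair the libraries. Deviations of same-numbered libraries correlated at -0.06 to 0.21, and 8 of 12 correlated best with their own number, a hint from the data and not the design. The replicate block moved genes called for Senexin B from 398 to 479. Depth limits KRT20, with 2 to 9 counts per library, and KRT23, with 90 to 156.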

Other observations

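Among other intermediate filament genes, 8 of 16 were tested. With Senexin B, averaged over both TNF conditions, 0 were called higher and 1 lower, LMNB1 (lamin B1 of the nuclear lamina, -0.13 ± 0.03, edgeR adjusted p = 0.00146), or 1 of 8 beside 10.1% of all tested genes in either direction. VIM, the mesenchymal filament gene, was at a mean of 4.12 CPM and was not called in any comparison. With TNF on average 3 were lower and 0 higher, namely LMNA (-0.17 ± 0.03), SYNM (-0.68 ± 0.19, at 2.82 CPM) and NES (-0.20 ± 0.07), or 3 of 8 beside 14.2% of all tested genes in either direction.

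Of 27 transcription factors of epithelial and AP-1 type, 24 were tested. With TNF against control 10 were higher and 1 lower, beside 10.0% of all tested genes in either direction, led by FOSL2 (1.44 ± 0.06), ELF3 (1.60 ± 0.07) and ETS1 (1.73 ± 0.08). FOS, named after its value was seen, was the one that was lower. With Senexin B averaged over both conditions 4 were higher and 4 lower, beside 10.1% of all tested genes in either direction. JUN fell by 1.34, with 28.0 ± 1.41 CPM in control cells and 11.2 ± 1.03 CPM with Senexin B alone (SD, n = 3). KLF5, a factor of gut epithelium, rose by 0.33 ± 0.04, with 75.7 ± 6.24 CPM in control cells and 95.6 ± 3.57 CPM with Senexin B alone. The others, named after their values were seen except JUND, were KLF4, EHF and FOSL2 (higher) and FOS, JUND and TFAP2C (lower). CDX2, an intestinal factor, was at a mean of 17.2 CPM and not called, and CDX1 was at 0 counts.

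Of 16 genes of epithelial identity all were tested. With Senexin B alone 1 was called, CDH3 (P-cadherin, 0.17 ± 0.05, edgeR adjusted p = 0.0303), and with TNF present 3 were, CLDN4 (0.36 ± 0.05), CDH3 (0.18 ± 0.05) and ST14 (0.16 ± 0.05), all higher. That is 1 and 3 of 16, beside 3.04% and 5.45% of all tested genes in either direction.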
